A study of Mus musculus with 9 samples.

Results

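The matrix metalloproteinases (MMP), the ADAMTS proteases, the ADAMTS-like proteins and the tissue inhibitors of metalloproteinases (TIMP) were described in mouse pancreatic stellate cells, the matrix-making fibroblast-like cells of the pancreas. Members were the protein-coding genes of GENCODE M21 whose symbols follow the Mmp, Adamts, Adamtsl and Timp numbering. The rule found 50 genes among the 49315 gene identifiers of the count table, of which 22 were MMP, 19 ADAMTS, 5 ADAMTS-like and 4 TIMP genes. Mmp1a was not among them because GENCODE M21 does not class it as protein-coding.

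Poly-A RNA was sequenced from 9 libraries in 3 groups of 3. All cells were C57BL6 stellate cells that had become immortal by spontaneous outgrowth, carried Cas9 from a lentivirus, had been selected with puromycin and were used as a polyclonal pool in DMEM with 10% FBS. HIF1a-ko hypoxia cells carried the guide HIF1a-sg2 and spent 48 h at 0.5% oxygen. R26 hypoxia cells carried the control guide R26-sg1 and spent 48 h at 0.5% oxygen, and R26 normoxia cells carried the same control guide and spent 48 h at 20% oxygen. Cells with the HIF1a guide at 20% oxygen were not analysed here, so the effect of the guide without hypoxia and an interaction of guide with oxygen could not be given. The labels name no separate cultures behind the 3 libraries of each group, and p-values therefore rest on a spread between libraries that may be technical. The design permits 3 comparisons. R26 hypoxia against R26 normoxia gives the effect of low oxygen. HIF1a-ko hypoxia against R26 hypoxia sets cells with the HIF1a guide against cells with the control guide at low oxygen. HIF1a-ko hypoxia against R26 normoxia differs in both guide and oxygen. The only HIF1a guide was HIF1a-sg2 and the only control guide R26-sg1. The effect of the guide on Hif1a, its effects elsewhere in the genome and differences between the cell pools cannot be told apart. Each pair of comparisons shares a group, and each member's own values are therefore set side by side.

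MMPs are zinc endopeptidases, secreted or bound to the membrane, that are made as inactive precursors and cleave collagens, other matrix proteins, growth factors and receptors. ADAMTS proteases carry thrombospondin repeats beside a related metalloproteinase domain and include the procollagen N-proteinases and the enzymes that cut aggrecan and versican, while the ADAMTS-like proteins have the repeats without the protease domain. TIMPs bind the active site of MMPs and of some ADAM and ADAMTS proteases. In the pancreas, activated stellate cells are known both to deposit collagen and to make MMPs and TIMPs, so that the balance of the families bears on matrix turnover, and hypoxia-inducible factor 1 (HIF-1), whose oxygen-regulated subunit Hif1a encodes, is the best known transcriptional regulator of the response to low oxygen.

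Library totals lay between 43837809 and 107840223 counts, and 1 library of each group (HIF1a-ko hypoxia 1, R26 hypoxia 3 and R26 normoxia 3) was deeper than the rest. Those 3 libraries also stood apart in marker genes. Their summed level of 4 fat cell markers (Adipoq, Plin1, Lep and Fabp4) was 0.236 to 0.489 CPM (counts scaled to an equal library total), against 46.3 to 101 CPM in the 6 shallower libraries, and the sum of 8 leukocyte markers was 7.53 to 16 CPM, against 25.4 to 43.8 CPM. The sum of 6 epithelial markers was 14.1 to 46.5 CPM in the deeper libraries, against 56.9 to 106.6 CPM in the shallower ones. For 5 endothelial markers the sums were 7.37 to 11.9 CPM and 12.7 to 19.99 CPM. The 10 fibroblast and stellate cell markers, with Col1a1, Col1a2 and Vim the most abundant and Fap under 1 CPM, summed to 13081.5 to 13530.9 CPM in HIF1a-ko hypoxia, 19392.3 to 20963.7 CPM in R26 hypoxia and 17181.2 to 18933.1 CPM in R26 normoxia, with no overlap between groups. Des was also low, at 0.246 to 3.73 CPM, and lowest in the deeper library of each group. The single markers did not move alike. Pdgfra stood at 200.2, 216 and 219.5 CPM in HIF1a-ko hypoxia, 667, 682 and 713 CPM in R26 hypoxia and 485, 482 and 493 CPM in R26 normoxia. Acta2 was instead higher in HIF1a-ko hypoxia (1077, 1075 and 1276 CPM) than in R26 hypoxia (838, 736 and 786 CPM). In R26 normoxia Acta2 was highest, at 1553, 1514 and 1494 CPM. Dcn overlapped between the hypoxia groups, at 358, 369 and 300 CPM in HIF1a-ko hypoxia and 311, 379 and 357 CPM in R26 hypoxia. The part of these markers in members that were lowest in HIF1a-ko hypoxia was not tested. The 8 acinar and islet markers summed to 4.49 to 14.9 CPM, most of it from Cela1, at 4.22 to 12.7 CPM. Gcg reached 1.73 CPM in the shallower libraries and had 0 counts in the 3 deeper ones. Amy2a5, Ins1 and Ins2 had 0 counts in all 9 libraries. The gene targeted by the guide, Hif1a, stood at 123, 117 and 125 CPM in HIF1a-ko hypoxia, 178, 169 and 207 CPM in R26 hypoxia, and 194, 192 and 225 CPM in R26 normoxia. Its log2 fold change was -0.60 ± 0.09 (SE) in HIF1a-ko hypoxia against R26 hypoxia (adjusted p = 0.000358); a count over the whole gene does not show whether the protein was lost. In bulk RNA, fewer cells of a type and less RNA per cell cannot be told apart.

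Of the 50 members, 33 had a mean of at least 1 CPM in at least 1 group: 14 MMP, 12 ADAMTS, 3 ADAMTS-like and 4 TIMP genes. By group, 31 members reached 1 CPM in HIF1a-ko hypoxia, 32 in R26 hypoxia and 32 in R26 normoxia. The expressed MMP genes were Mmp2, Mmp3, Mmp9 to Mmp17, Mmp19, Mmp23 and Mmp28. The expressed ADAMTS genes were Adamts1 to Adamts7, Adamts9, Adamts10, Adamts12, Adamts14 and Adamts15, and beside them stood Adamtsl1, Adamtsl4, Adamtsl5 and Timp1 to Timp4. Mmp9 missed 1 CPM in both hypoxia groups and Timp4 in HIF1a-ko hypoxia and R26 normoxia. The other 17 members stayed below 1 CPM in every group, with a highest group mean of 0.791 CPM (Mmp27). Of these, 8 had enough counts to be tested: the neutrophil collagenase Mmp8, Mmp24, Mmp25, Mmp27, Adamts8, the von Willebrand factor protease Adamts13, Adamts16 and Adamtsl3. The other 9 were not tested and had at most 9 counts in any library: Mmp1b, the matrilysin Mmp7, the enamel protease Mmp20, Mmp21, Adamts17 to Adamts20 and Adamtsl2. Mmp1b and Mmp20 had 0 counts in all 9 libraries. There 3 counts, used as an approximate and not a hard upper limit for a count of 0, correspond to between 0.0284 and 0.0697 CPM.

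**Figure D1:**
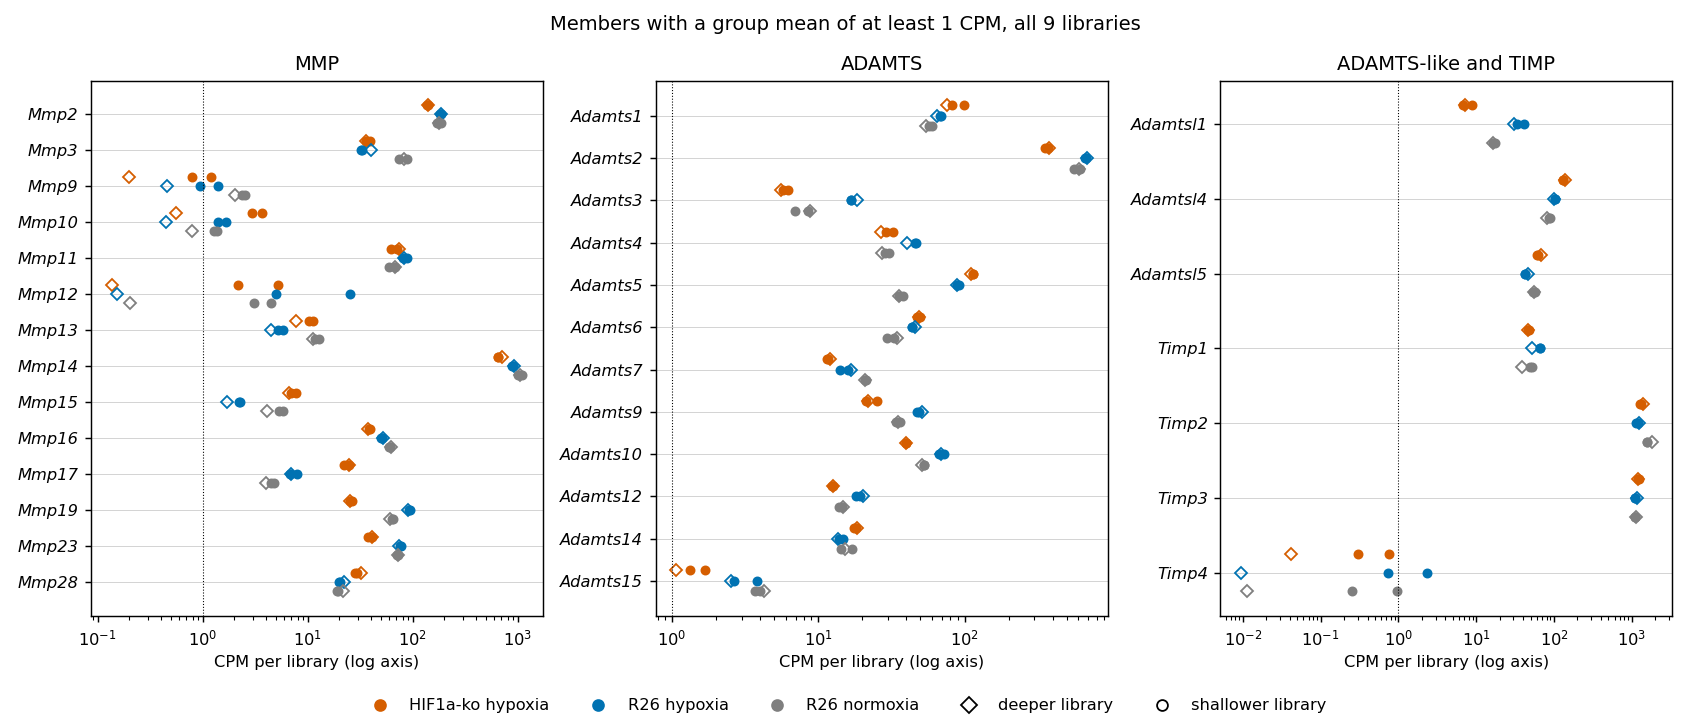
Level of each of the 33 members with a group mean of at least 1 CPM in every library, in CPM on a log axis, for MMP, ADAMTS, and ADAMTS-like with TIMP genes. Orange, blue and grey mark HIF1a-ko hypoxia, R26 hypoxia and R26 normoxia, diamonds the deeper libraries, and the dotted line 1 CPM; Timp2, Timp3 and Mmp14 lie near the top of the scale, and Mmp12 and Timp4 spread widely within each group.

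Divided by exon length, so that levels of different genes can be compared, Timp2 led all members in every group, at 342 CPM per kb in HIF1a-ko hypoxia, 306 CPM per kb in R26 hypoxia and 421 CPM per kb in R26 normoxia. Mmp14 and Timp3 followed it, with Timp3 above Mmp14 in HIF1a-ko hypoxia (149 against 112 CPM per kb) and Mmp14 above Timp3 in R26 hypoxia (151 against 138 CPM per kb) and in R26 normoxia (177 against 136 CPM per kb). Ranks 4 to 6 went to Adamts2, Timp1 and Mmp2 in an order that varied with the group. The membrane collagenase Mmp14 made up 45.4% of the summed MMP level per kb in HIF1a-ko hypoxia, 45.5% in R26 hypoxia and 48.2% in R26 normoxia. The procollagen protease Adamts2 made up 42.5% of the ADAMTS sum in HIF1a-ko hypoxia, 55.5% in R26 hypoxia and 59.8% in R26 normoxia.

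The summed MMP level was 252, 247 and 239 CPM per kb in the libraries of HIF1a-ko hypoxia, 329, 332 and 334 in R26 hypoxia, and 352, 384 and 368 in R26 normoxia. The groups did not overlap, with HIF1a-ko hypoxia lowest. ADAMTS genes summed to 91.0, 93.2 and 93.5 CPM per kb in HIF1a-ko hypoxia, 130.8, 130.8 and 131 in R26 hypoxia, and 103, 109 and 107 in R26 normoxia, so the sum was highest in R26 hypoxia and lowest in HIF1a-ko hypoxia. ADAMTS-like genes summed to 47.5, 44.7 and 44.4 CPM per kb in HIF1a-ko hypoxia, 35.8, 36.4 and 36.0 in R26 hypoxia, and 32.9, 34.2 and 32.5 in R26 normoxia. Here HIF1a-ko hypoxia was the highest group. TIMP genes summed to 557, 529.6 and 544 CPM per kb in HIF1a-ko hypoxia, 503, 519 and 519 in R26 hypoxia, and 586, 596 and 648 in R26 normoxia, lowest in R26 hypoxia. Set against each other, the TIMP sum was 2.21, 2.15 and 2.27 times the MMP sum in HIF1a-ko hypoxia, 1.53, 1.56 and 1.55 times in R26 hypoxia, and 1.67, 1.55 and 1.76 times in R26 normoxia. The ratio was thus higher in HIF1a-ko hypoxia than in any library of the other groups, while R26 hypoxia and R26 normoxia overlapped. These sums are descriptions of transcripts, carry no test, and are set by the few most abundant genes of each subfamily.

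**Figure D2:**
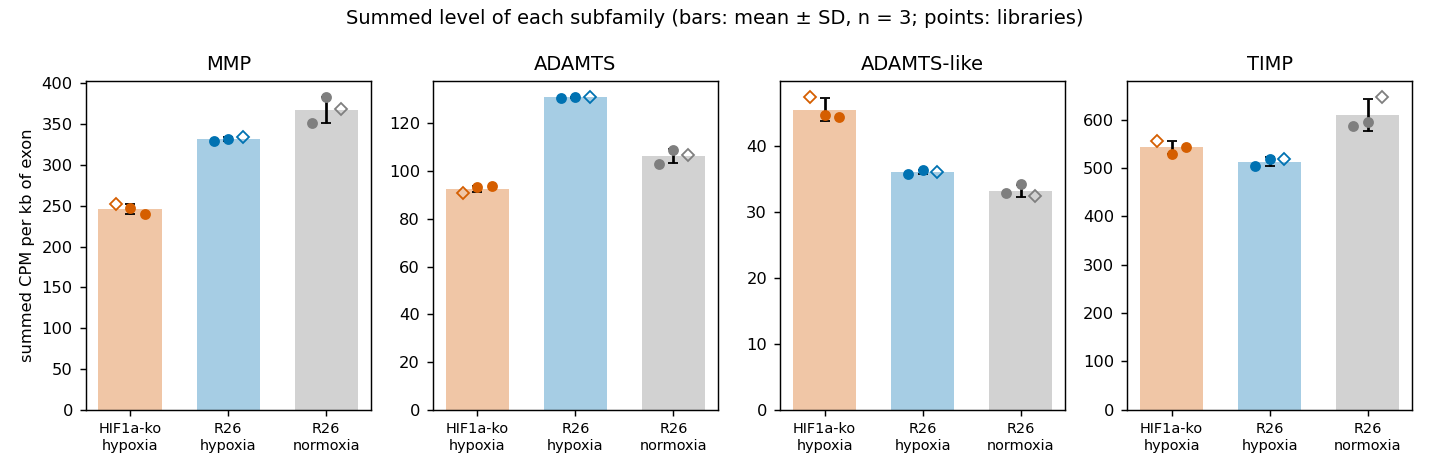
Summed level of each subfamily in CPM per kb of exon, with bars for the mean and its SD over 3 libraries of HIF1a-ko hypoxia, R26 hypoxia and R26 normoxia, and points for the libraries (diamonds are the deeper ones). The MMP and ADAMTS sums are lowest in HIF1a-ko hypoxia and the ADAMTS-like sum is highest there; the TIMP sum is lowest in R26 hypoxia.

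Differences were tested gene by gene over the whole count table with the quasi-likelihood test of edgeR, and a gene was called at a Benjamini-Hochberg adjusted p under 0.05 over 18211 genes; 41 of the 50 members had enough counts to be tested. Fold changes are log2 values of the first-named group over the second, with the SE after the ± sign. In R26 hypoxia against R26 normoxia, 14 members were higher and 8 lower, 53.7% of those tested, where 25.2% of all genes tested were called (12.8% higher and 12.4% lower). In HIF1a-ko hypoxia against R26 hypoxia, 10 were higher and 16 lower, 63.4%, where 45.8% of all genes tested were called (22% higher and 23.8% lower). With R26 normoxia in place of R26 hypoxia, 10 were higher and 16 lower, 63.4%, where 41.4% of all genes tested were called (19.5% higher and 21.9% lower), and the 10 higher became 6 without R26 normoxia 1. The median log2 fold change of the tested members was 0.06, -0.22 and -0.19 in these comparisons in the order given, where the median over all genes tested was -0.01, -0.02 and -0.01.

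By subfamily, ADAMTS genes were mostly higher with low oxygen in R26 cells (8 of 15 tested higher, 1 lower, median log2 fold change 0.23) and mostly lower in HIF1a-ko hypoxia against R26 hypoxia (3 higher, 8 lower, median -0.41). Set against R26 normoxia, HIF1a-ko hypoxia had 4 of the 15 higher and 7 lower. MMP genes went both ways: of 18 tested, 3 were higher and 5 lower in R26 hypoxia against R26 normoxia, 5 higher and 6 lower in HIF1a-ko hypoxia against R26 hypoxia, and 3 higher and 7 lower in HIF1a-ko hypoxia against R26 normoxia. Of 4 ADAMTS-like genes tested, 2 were higher and 1 lower in each of the 3 comparisons. Of 4 TIMP genes, 1 was higher and 1 lower in R26 hypoxia against R26 normoxia, 1 was lower in HIF1a-ko hypoxia against R26 hypoxia, and 1 was higher and 1 lower in HIF1a-ko hypoxia against R26 normoxia. In the order of the 3 comparisons, 60%, 73.3% and 73.3% of tested ADAMTS genes were called in either direction. The shares were 44.4%, 61.1% and 55.6% for MMP, 75% in each for ADAMTS-like, and 50%, 25% and 50% for TIMP genes. Over all genes tested they were 25.2%, 45.8% and 41.4%.

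**Figure D3:**
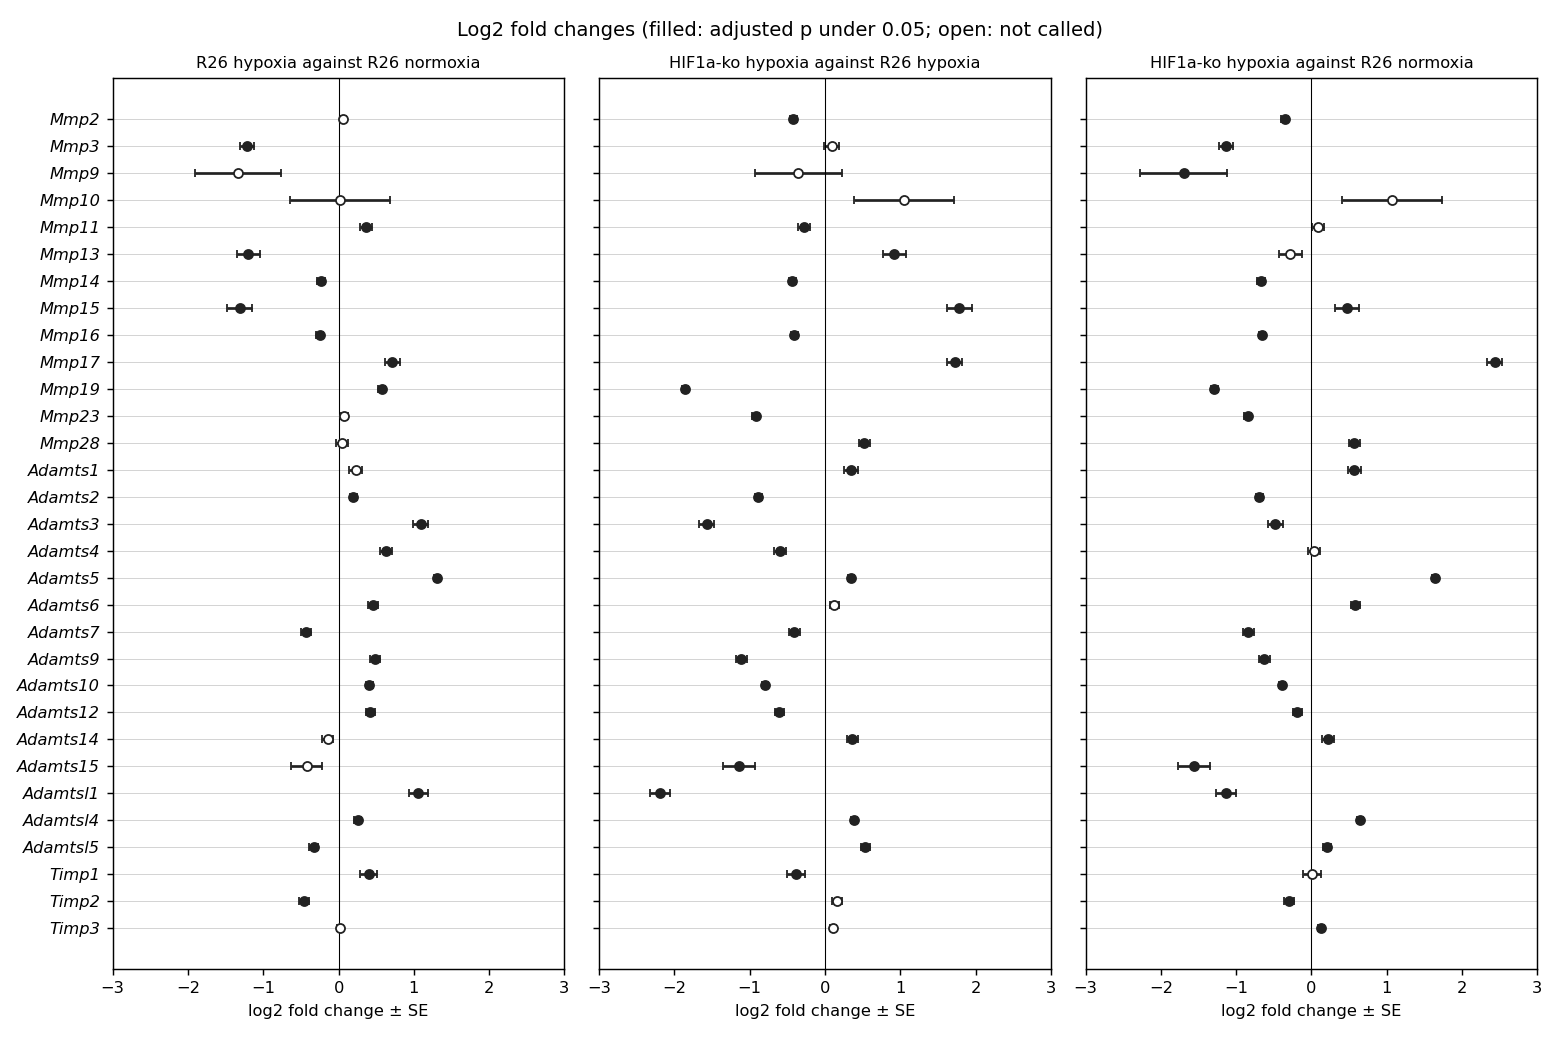
Log2 fold change ± SE of 31 expressed members in the 3 comparisons, first-named group over second, with filled points for adjusted p under 0.05 and open points for the rest; Mmp12 and Timp4, whose SE exceeds 1.5, are left out. Mmp17 lies right of 0 and Mmp14, Mmp16 and Adamts7 left of 0 in all 3 panels, while Adamtsl1, Mmp19 and Adamts3 lie right of 0 in R26 hypoxia against R26 normoxia and left of 0 in both comparisons of HIF1a-ko hypoxia.

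The membrane-bound MMPs did not move as a group. Mmp14 and Mmp16 were lower in both hypoxia groups than in R26 normoxia and lowest in HIF1a-ko hypoxia, Mmp15 was lowest in R26 hypoxia, and Mmp17 was highest in HIF1a-ko hypoxia. Mmp14 encodes MT1-MMP, a transmembrane collagenase that also activates the MMP2 precursor. It stood at 703, 646 and 650.5 CPM in HIF1a-ko hypoxia, 890.4, 892 and 916 CPM in R26 hypoxia and 1007, 1108 and 1058 CPM in R26 normoxia. The 3 groups did not overlap. Mmp14 fell with low oxygen, with a log2 fold change of -0.23 ± 0.052 (adjusted p = 0.0105), and was lower in HIF1a-ko hypoxia than in R26 hypoxia (-0.43 ± 0.053 log2, adjusted p = 0.000122). The first of these calls was lost when no filter on low counts was applied (adjusted p = 0.0863). Mmp16 encodes MT3-MMP, another transmembrane protease, and stood at 37.7, 38.7 and 39.1 CPM in HIF1a-ko hypoxia, 51.1, 49.6 and 52.4 CPM in R26 hypoxia and 59.2, 60.8 and 62.2 CPM in R26 normoxia. Its groups were ordered like those of Mmp14, without overlap. The log2 fold change of Mmp16 was -0.25 ± 0.042 in R26 hypoxia against R26 normoxia (adjusted p = 0.00244) and -0.41 ± 0.043 in HIF1a-ko hypoxia against R26 hypoxia (adjusted p = 4.58e-05).

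Mmp15, which encodes MT2-MMP, stood at 6.58, 7.72 and 6.901 CPM in HIF1a-ko hypoxia, 2.197, 2.27 and 1.71 CPM in R26 hypoxia and 5.33, 5.85 and 4.11 CPM in R26 normoxia. R26 hypoxia was the low group, and HIF1a-ko hypoxia lay just above R26 normoxia. Mmp15 fell with low oxygen (-1.31 ± 0.17 log2, adjusted p = 0.000523) and was 3.44 times higher in HIF1a-ko hypoxia than in R26 hypoxia (1.78 ± 0.17 log2, adjusted p = 2.18e-05). Its smaller difference of HIF1a-ko hypoxia from R26 normoxia (0.47 ± 0.16 log2, adjusted p = 0.04) was not called when HIF1a-ko hypoxia 1, 2 or 3, R26 hypoxia 1, or R26 normoxia 1 or 3 was left out (adjusted p 0.0506 to 0.13). Mmp17 encodes MT4-MMP, which is held in the membrane by a glycolipid anchor. It stood at 24.5, 22 and 24.7 CPM in HIF1a-ko hypoxia, 6.74, 7.94 and 6.93 CPM in R26 hypoxia and 4.497, 4.74 and 3.96 CPM in R26 normoxia. Each group lay above the next without overlap, and Mmp17 had the largest called rise of any member in HIF1a-ko hypoxia against R26 normoxia. The steps were 0.71 ± 0.099 log2 in R26 hypoxia against R26 normoxia (adjusted p = 0.000863) and 1.72 ± 0.098 log2 in HIF1a-ko hypoxia against R26 hypoxia (adjusted p = 9.27e-07), and the whole difference from R26 normoxia was 2.44 ± 0.10 log2 (adjusted p = 2.77e-07). Mmp23, a type II membrane protein, stood at 41.3, 41.1 and 37.6 CPM in HIF1a-ko hypoxia, 75.8, 76.6 and 74.5 CPM in R26 hypoxia and 72.3, 71.5 and 71.7 CPM in R26 normoxia. HIF1a-ko hypoxia was the low group, at -0.92 ± 0.045 log2 against R26 hypoxia (adjusted p = 4.23e-07), and low oxygen alone gave no call (0.07 ± 0.044 log2, adjusted p = 0.277). Mmp24 and Mmp25, which encode MT5-MMP and MT6-MMP, stayed below 1 CPM and were called in none of the comparisons by this test; the unadjusted p of Mmp25 in HIF1a-ko hypoxia against R26 normoxia was 0.0313.

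The gelatinases, which cleave denatured collagen and basement membrane collagen, differed from each other in level. Mmp2, gelatinase A, stood at 140.1, 140.3 and 137 CPM in HIF1a-ko hypoxia, 184, 187 and 187 CPM in R26 hypoxia and 172, 186 and 176 CPM in R26 normoxia. HIF1a-ko hypoxia lay below the overlapping R26 groups. Mmp2 fell by 0.42 ± 0.042 on the log2 scale in HIF1a-ko hypoxia against R26 hypoxia (adjusted p = 3.35e-05) and was not called for low oxygen (0.06 ± 0.042 log2, adjusted p = 0.337). Mmp9, gelatinase B, stood at 0.198, 1.19 and 0.794 CPM in HIF1a-ko hypoxia, 0.935, 1.39 and 0.454 CPM in R26 hypoxia and 2.55, 2.37 and 2.05 CPM in R26 normoxia. All 3 R26 normoxia libraries lay above all 6 hypoxia libraries, and within each group the deeper library was the lowest. In R26 hypoxia against R26 normoxia Mmp9 was not called (-1.34 ± 0.57 log2, adjusted p = 0.125), but it was with the replicate number as a block (-1.44 log2, adjusted p = 0.0019), with a depth term (-1.49 log2, adjusted p = 0.00282), without HIF1a-ko hypoxia 1 (adjusted p = 0.0367) and with DESeq2 (adjusted p = 0.0387). The call in HIF1a-ko hypoxia against R26 normoxia (-1.70 ± 0.58 log2, adjusted p = 0.0418) was lost when HIF1a-ko hypoxia 1 or 3, R26 hypoxia 1, or R26 normoxia 1, 2 or 3 was left out (adjusted p 0.0585 to 0.101).

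A set of 9 MMP members lies side by side on chromosome 9, between positions 7272514 and 7699585 of GRCm38, a span of 427072 bases. It holds the collagenase Mmp13, the macrophage elastase Mmp12, the interstitial collagenase homologue Mmp1b, the stromelysins Mmp3 and Mmp10, Mmp8, Mmp27, Mmp20 and Mmp7. Their promoters are shown because many of these genes share a match to the binding site of AP-1, the dimer of FOS and JUN proteins. Each line is the coding strand, 5′ to 3′, from the RefSeq promoter of the gene (build GRCm38.p6), with the match to TGANTCA in capitals and 20 bases on either side; positions count from the first transcribed base as 1.
Mmp13 (chr9:7272459-7272505, plus strand): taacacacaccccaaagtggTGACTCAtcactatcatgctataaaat
Mmp12 (chr9:7347310-7347356, plus strand): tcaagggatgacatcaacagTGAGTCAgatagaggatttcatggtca
Mmp1b (chr9:7388093-7388139, minus strand): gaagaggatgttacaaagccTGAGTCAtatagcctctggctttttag
Mmp3 (chr9:7445756-7445802, plus strand): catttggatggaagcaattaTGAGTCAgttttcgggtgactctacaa
Mmp10 (chr9:7502259-7502305, plus strand): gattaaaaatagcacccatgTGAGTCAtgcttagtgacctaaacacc
Mmp20 (chr9:7628116-7628162, plus strand): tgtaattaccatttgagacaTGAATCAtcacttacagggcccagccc
Mmp7 (chr9:7692007-7692053, plus strand): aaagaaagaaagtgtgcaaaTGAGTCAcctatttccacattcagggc
The match ran from position -35 to -29 in Mmp13, -44 to -38 in Mmp12, -46 to -40 in Mmp3 and -63 to -57 in Mmp10 and Mmp7. In Mmp1b and Mmp20 it lay farther out, from -93 to -87 and from -95 to -89. Mmp12 and Mmp7 have a further start in the table without the match. The motif reads the same on both strands, and it occurred in a promoter of 7 of the 9 cluster genes (77.8%), against 8.97% of the 27025 genes and 7.81% of the 32851 promoters in the table. Each promoter runs from 250 bases before to 50 bases after the start. No such match was found in the promoters of Mmp8 and Mmp27, nor in those of the 10 ADAMTS, 4 ADAMTS-like and 4 TIMP genes with an entry.

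Within the cluster, expressed members did not move alike. Mmp3, stromelysin 1, stood at 35.99, 39.5 and 36.1 CPM in HIF1a-ko hypoxia, 32.1, 33.1 and 39.7 CPM in R26 hypoxia and 73.3, 87.7 and 83.4 CPM in R26 normoxia. Both hypoxia groups overlapped and lay below R26 normoxia. Mmp3 fell to 0.43 of its normoxic level in R26 hypoxia (-1.22 ± 0.095 log2, adjusted p = 3.73e-05) and did not pass the test between HIF1a-ko hypoxia and R26 hypoxia (0.09 ± 0.094 log2, adjusted p = 0.499). Among the 6 shallower libraries alone, the difference between the hypoxia groups was called (0.22 log2, adjusted p = 0.0375). Mmp13, collagenase 3, stood at 7.78, 11.3 and 10.3 CPM in HIF1a-ko hypoxia, 5.85, 5.25 and 4.43 CPM in R26 hypoxia and 11.8, 12.7 and 11.1 CPM in R26 normoxia. R26 hypoxia lay below both other groups, which overlapped. Mmp13 fell with low oxygen (-1.20 ± 0.15 log2, adjusted p = 0.00054) and was higher in HIF1a-ko hypoxia than in R26 hypoxia (0.92 ± 0.15 log2, adjusted p = 0.000844), with no call between HIF1a-ko hypoxia and R26 normoxia (-0.28 ± 0.15 log2, adjusted p = 0.172). Once the fit held a term for depth class, that last difference passed the test (-0.30 log2, adjusted p = 0.0122), and among the 6 shallower libraries it did not (-0.16 log2, adjusted p = 0.237). Mmp27, at 0.7704, 0.8898 and 0.712 CPM in HIF1a-ko hypoxia, 0.392, 0.477 and 0.567 CPM in R26 hypoxia and 1.02, 0.6503 and 0.698 CPM in R26 normoxia, was low throughout. Its call in HIF1a-ko hypoxia against R26 hypoxia (0.71 ± 0.25 log2, adjusted p = 0.0442) was lost with DESeq2 (adjusted p = 0.0964) and when R26 normoxia 3, R26 hypoxia 1 or 2, or HIF1a-ko hypoxia 1, 2 or 3 was left out (adjusted p 0.0515 to 0.128). Mmp8, whose highest group mean was 0.363 CPM, was not called with low oxygen (adjusted p = 0.0994) but was with the replicate number as a block (-1.48 log2, adjusted p = 0.0162) and with a depth term (-1.52 log2, adjusted p = 0.0226). In HIF1a-ko hypoxia against R26 hypoxia Mmp8 was not called either (1.28 ± 0.57 log2, adjusted p = 0.1). There it was called among the 6 shallower libraries (1.48 log2, adjusted p = 0.0239) and without HIF1a-ko hypoxia 1 (1.73 log2, adjusted p = 0.0131).

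The stromelysin Mmp10 and the elastase Mmp12 varied widely between libraries of a group, as did Timp4. Mmp12 stood at 0.135, 5.17 and 2.18 CPM in HIF1a-ko hypoxia, 25.1, 4.95 and 0.151 CPM in R26 hypoxia and 4.45, 3.09 and 0.203 CPM in R26 normoxia. In each group the deeper library was the lowest by far. Its log2 fold change in R26 hypoxia against R26 normoxia was 1.98 ± 1.57 (adjusted p = 0.426) and became -0.02 without R26 hypoxia 1. Among the 6 shallower libraries alone it was 2.00 (adjusted p = 0.0123), with a term for depth class 1.77 (adjusted p = 0.025), and with the replicate block 1.58 (adjusted p = 0.00754). In HIF1a-ko hypoxia against R26 hypoxia it was -2.03 ± 1.56 (adjusted p = 0.334), while the depth term gave -1.86 (adjusted p = 0.0115) and the 6 shallower libraries gave -2.02 (adjusted p = 0.00557). Mmp10 stood at 0.552, 2.92 and 3.705 CPM in HIF1a-ko hypoxia, 1.65, 1.39 and 0.444 CPM in R26 hypoxia and 1.36, 1.28 and 0.788 CPM in R26 normoxia. The deeper libraries were again lowest, and HIF1a-ko hypoxia 2 and 3 were the highest of the 9. Mmp10 was not called in HIF1a-ko hypoxia against R26 hypoxia (1.05 ± 0.66 log2, adjusted p = 0.237), and it was when HIF1a-ko hypoxia 1 was left out (1.54 log2, adjusted p = 0.0347) and among the 6 shallower libraries (1.12 log2, adjusted p = 0.000332) and with a term for depth class (0.93 log2, adjusted p = 0.0139). Against R26 normoxia it was likewise not called (1.07 ± 0.66 log2, adjusted p = 0.24), but was without HIF1a-ko hypoxia 1 (1.57 log2, adjusted p = 0.0361) and with the depth term (0.77 log2, adjusted p = 0.0414). Timp4, a TIMP with a narrow tissue range, stood at 0.0416, 0.757 and 0.305 CPM in HIF1a-ko hypoxia, 2.33, 0.736 and 0.00945 CPM in R26 hypoxia and 0.972, 0.255 and 0.0113 CPM in R26 normoxia. The deeper libraries of R26 hypoxia and R26 normoxia had 1 count each. It was not called for low oxygen (1.34 ± 1.54 log2, adjusted p = 0.608) except with the replicate block (1.33 log2, adjusted p = 0.0107), and its fold change became -0.17 without R26 hypoxia 1. Over the same libraries the fat cell and leukocyte marker sums were low in the deeper library of each group. Of the 4 fat cell markers, 0 averaged at least 1 CPM in the deeper libraries and 4 in the shallower ones, and Adipoq and Lep had 0 counts in HIF1a-ko hypoxia 1 and R26 hypoxia 3. Of the 8 leukocyte markers, 2 averaged at least 1 CPM in the deeper and 4 in the shallower libraries. The fat cell sum ran from 0.489 to 59.8 CPM within HIF1a-ko hypoxia, from 0.236 to 101 CPM within R26 hypoxia and from 0.450 to 73.6 CPM within R26 normoxia; the part of other cells in these values was not tested.

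**Figure D4:**
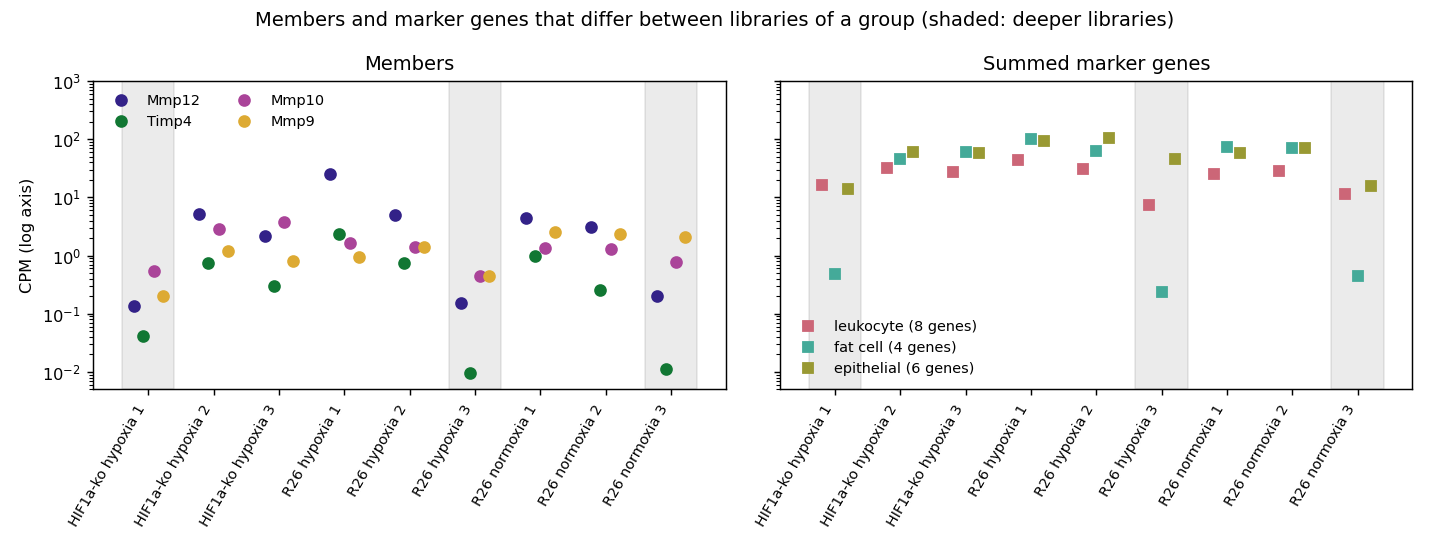
Level of Mmp12, Timp4, Mmp10 and Mmp9 (left) and summed level of 8 leukocyte, 4 fat cell and 6 epithelial marker genes (right) in every library, in CPM on a log axis. Shading marks the deeper library of each group, where Mmp12 and Timp4 lie at or under 0.203 CPM and the fat cell sum lies at or under 0.489 CPM.

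Among the other secreted MMPs, Mmp19 had the sharpest contrast between the hypoxia groups. Mmp19 encodes a secreted protease of basement membrane components and stood at 25.2, 26.3 and 25.2 CPM in HIF1a-ko hypoxia, 92.3, 94.7 and 91.04 CPM in R26 hypoxia and 64.2, 62.9 and 60.2 CPM in R26 normoxia. R26 hypoxia was the high group and HIF1a-ko hypoxia the low one, with no overlap. It rose with low oxygen (0.57 ± 0.042 log2, adjusted p = 2.45e-05) and was 3.63 times lower in HIF1a-ko hypoxia than in R26 hypoxia (-1.86 ± 0.043 log2, adjusted p = 3.11e-08). Its exons share 789 bases, 22.3% of their length, with Tmem198b on the opposite strand, which stood at 11.4 CPM per kb in HIF1a-ko hypoxia, 19.9 in R26 hypoxia and 17.5 in R26 normoxia. Whether the counts used strand is not given in the sources used here, so reads of such pairs cannot be assigned with certainty. Mmp11, stromelysin 3, which is activated inside the cell by furin, stood at 74.03, 70.3 and 62.3 CPM in HIF1a-ko hypoxia, 80.96, 88.3 and 82.1 CPM in R26 hypoxia and 59.2, 67.98 and 67.7 CPM in R26 normoxia. R26 hypoxia lay above both other groups. Mmp11 rose with low oxygen (0.37 ± 0.077 log2, adjusted p = 0.00751). It was lower in HIF1a-ko hypoxia than in R26 hypoxia (-0.28 ± 0.077 log2, adjusted p = 0.0136), a call lost without R26 hypoxia 2 (adjusted p = 0.051) or HIF1a-ko hypoxia 3 (adjusted p = 0.0683). Mmp28, epilysin, stood at 31.8, 29.3 and 28.3 CPM in HIF1a-ko hypoxia, 19.7, 20.4 and 22.1 CPM in R26 hypoxia and 19.6, 19.2 and 21.6 CPM in R26 normoxia. HIF1a-ko hypoxia was the high group (0.52 ± 0.074 log2 against R26 hypoxia, adjusted p = 0.000324) and low oxygen alone gave no call (0.04 ± 0.074 log2, adjusted p = 0.74). Its exons share 466 bases with 1700020L24Rik on the opposite strand, which stood at 7.73 CPM per kb in HIF1a-ko hypoxia, 4.94 in R26 hypoxia and 5.09 in R26 normoxia.

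The procollagen N-proteinases Adamts2, Adamts3 and Adamts14 remove the amino-terminal propeptide of fibrillar collagens. Adamts2 and Adamts3 were highest in R26 hypoxia and lowest in HIF1a-ko hypoxia, while Adamts14 was highest in HIF1a-ko hypoxia. Adamts2, the main enzyme for type I collagen in skin, stood at 377, 370.1 and 355 CPM in HIF1a-ko hypoxia, 678, 669 and 688 CPM in R26 hypoxia and 563, 611 and 604 CPM in R26 normoxia. The groups did not overlap. Its rise with low oxygen was small (0.19 ± 0.047 log2, adjusted p = 0.0152) and was not called without R26 normoxia 1 (adjusted p = 0.0636) or with no filter on low counts (adjusted p = 0.0594). Relative to R26 hypoxia, Adamts2 in HIF1a-ko hypoxia was lower by 1.85 times (-0.89 ± 0.048 log2, adjusted p = 6.87e-07). Adamts3, which also processes the lymphatic growth factor VEGF-C, stood at 5.54, 6.17 and 5.78 CPM in HIF1a-ko hypoxia, 16.7, 16.8 and 18.5 CPM in R26 hypoxia and 8.52, 6.99 and 8.79 CPM in R26 normoxia. R26 hypoxia was the high group, by 1.09 ± 0.10 log2 against R26 normoxia (adjusted p = 9.26e-05), and HIF1a-ko hypoxia lay -1.57 ± 0.10 log2 from R26 hypoxia (adjusted p = 2.13e-06) and -0.48 ± 0.10 log2 from R26 normoxia (adjusted p = 0.00434). Adamts14 stood at 18.3, 18.2 and 17.7 CPM in HIF1a-ko hypoxia, 13.8, 14.7 and 13.6 CPM in R26 hypoxia and 14.3, 17.05 and 15.2 CPM in R26 normoxia. HIF1a-ko hypoxia lay above the overlapping R26 groups, with 0.36 ± 0.074 log2 against R26 hypoxia (adjusted p = 0.003). The call against R26 normoxia (0.22 ± 0.074 log2, adjusted p = 0.0393) was lost without HIF1a-ko hypoxia 1 or 2, R26 hypoxia 1, or R26 normoxia 1 or 3 (adjusted p 0.0575 to 0.142).

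The proteoglycan-cutting ADAMTS genes, which cleave aggrecan, versican and related core proteins, split into members that were highest in HIF1a-ko hypoxia (Adamts1 and Adamts5) and members that were lower in HIF1a-ko hypoxia than in R26 hypoxia (Adamts4, Adamts9 and Adamts15). Adamts5, the main aggrecanase of mouse cartilage, stood at 111, 115 and 115 CPM in HIF1a-ko hypoxia, 89.2, 91.1 and 88.3 CPM in R26 hypoxia and 35.7, 37.7 and 35.5 CPM in R26 normoxia. Libraries of a group lay within a few CPM of each other, and the groups did not overlap. Adamts5 rose 2.47-fold with low oxygen (1.30 ± 0.040 log2, adjusted p = 1.37e-07), the largest called rise of any member in that comparison. It was higher again in HIF1a-ko hypoxia than in R26 hypoxia (0.34 ± 0.039 log2, adjusted p = 7.63e-05) and stood 3.13-fold above R26 normoxia (1.65 ± 0.040 log2, adjusted p = 7.68e-08). Its neighbour Adamts1, a versicanase, lies 53059 bases away on chromosome 16 with 0 protein-coding genes between. Adamts1 stood at 75.6, 82.5 and 98.4 CPM in HIF1a-ko hypoxia, 68.2, 68.97 and 64.7 CPM in R26 hypoxia and 57.4, 60.3 and 54.8 CPM in R26 normoxia. The groups did not overlap and followed the same order as Adamts5. Adamts1 was higher in HIF1a-ko hypoxia than in R26 hypoxia (0.35 ± 0.088 log2, adjusted p = 0.00968). For low oxygen alone it missed the threshold (0.23 ± 0.088 log2, adjusted p = 0.0939) but passed it with the replicate block (0.25 log2, adjusted p = 0.000841), with a depth term (adjusted p = 0.0115) and without HIF1a-ko hypoxia 1 (adjusted p = 0.0458) or 3 (adjusted p = 0.0157).

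Adamts4, the other classical aggrecanase, stood at 26.98, 32.4 and 28.9 CPM in HIF1a-ko hypoxia, 46.9, 46.1 and 40.6 CPM in R26 hypoxia and 28.8, 30.3 and 27.3 CPM in R26 normoxia. R26 hypoxia lay above both other groups, which overlapped. Adamts4 rose with low oxygen (0.63 ± 0.084 log2, adjusted p = 0.000683) and was lower in HIF1a-ko hypoxia than in R26 hypoxia (-0.60 ± 0.083 log2, adjusted p = 0.000298). Adamts9, a versicanase of the cell surface, stood at 21.9, 21.4 and 25.2 CPM in HIF1a-ko hypoxia, 48.7, 47.7 and 51.3 CPM in R26 hypoxia and 34.2, 36.4 and 34.9 CPM in R26 normoxia. Again R26 hypoxia was the high group and HIF1a-ko hypoxia the low one, with 0.49 ± 0.068 log2 for low oxygen (adjusted p = 0.000931) and -1.11 ± 0.069 log2 for HIF1a-ko hypoxia against R26 hypoxia (adjusted p = 1.6e-06). Adamts15, a versicanase of muscle and other tissues, stood at 1.07, 1.68 and 1.32 CPM in HIF1a-ko hypoxia, 2.65, 3.82 and 2.52 CPM in R26 hypoxia and 3.73, 4.02 and 4.28 CPM in R26 normoxia. HIF1a-ko hypoxia lay below the R26 groups, which overlapped at one library. It fell in HIF1a-ko hypoxia against R26 hypoxia (-1.14 ± 0.21 log2, adjusted p = 0.00168), and was called for low oxygen only with the replicate block (-0.44 log2, adjusted p = 0.0399, against 0.179 without it). Adamts8, whose gene lies 20109 bases from Adamts15 on chromosome 9, had a highest group mean of 0.312 CPM and was not called (unadjusted p 0.0428 in HIF1a-ko hypoxia against R26 normoxia, and adjusted p 0.0301 there without HIF1a-ko hypoxia 2 and 0.0389 with a depth term).

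Of the remaining ADAMTS members, Adamts6 and Adamts10 act on fibrillin microfibrils and cell adhesion. Adamts6 stood at 49.05, 49.3 and 47.3 CPM in HIF1a-ko hypoxia, 43.96, 43.8 and 45.96 CPM in R26 hypoxia and 32.99, 29.6 and 34.7 CPM in R26 normoxia. Both hypoxia groups lay above R26 normoxia, by 0.46 ± 0.061 log2 in R26 hypoxia (adjusted p = 0.000702) and 0.58 ± 0.061 log2 in HIF1a-ko hypoxia (adjusted p = 5.83e-05). Between the hypoxia groups it was not called (0.12 ± 0.061 log2, adjusted p = 0.131). Adamts10 stood at 39.9, 39.8 and 40.04 CPM in HIF1a-ko hypoxia, 66.5, 72.8 and 68.8 CPM in R26 hypoxia and 52.5, 52.7 and 51.6 CPM in R26 normoxia. It rose with low oxygen (0.41 ± 0.043 log2, adjusted p = 0.00019) and was lower in HIF1a-ko hypoxia than in both R26 groups (-0.80 ± 0.044 log2 against R26 hypoxia, adjusted p = 7.45e-07). Adamts7 and Adamts12 bind and cleave the cartilage protein COMP and went different ways. Adamts7 stood at 12.1, 11.8 and 11.5 CPM in HIF1a-ko hypoxia, 15.96, 14.2 and 16.7 CPM in R26 hypoxia and 21.4, 21.04 and 20.8 CPM in R26 normoxia. It was the one ADAMTS member called lower with low oxygen (-0.43 ± 0.070 log2, adjusted p = 0.00195) and was lower again in HIF1a-ko hypoxia (-0.41 ± 0.070 log2 against R26 hypoxia, adjusted p = 0.00107). It shares 122 exonic bases with Tbc1d2b on the opposite strand, which stood at 17.2 CPM per kb in HIF1a-ko hypoxia, 22.8 in R26 hypoxia and 28.5 in R26 normoxia. Adamts12 stood at 12.6, 12.6 and 12.5 CPM in HIF1a-ko hypoxia, 18.2, 19.3 and 20.1 CPM in R26 hypoxia and 14.5, 13.9 and 14.7 CPM in R26 normoxia. R26 hypoxia was the high group, by 0.42 ± 0.060 log2 against R26 normoxia (adjusted p = 0.000984), and HIF1a-ko hypoxia lay -0.61 ± 0.060 log2 from it (adjusted p = 2.97e-05). The small difference of HIF1a-ko hypoxia from R26 normoxia (-0.19 ± 0.060 log2, adjusted p = 0.03) was lost with DESeq2 (adjusted p = 0.0864) and without HIF1a-ko hypoxia 1, 2 or 3 or R26 normoxia 1 or 3 (adjusted p 0.0735 to 0.141).

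Of the ADAMTS-like members, Adamtsl1 was highest in R26 hypoxia and lowest in HIF1a-ko hypoxia, whereas Adamtsl4 and Adamtsl5 were highest in HIF1a-ko hypoxia. Adamtsl1, which encodes punctin-1, stood at 7.25, 8.803 and 6.82 CPM in HIF1a-ko hypoxia, 33.3, 41.1 and 30.2 CPM in R26 hypoxia and 16.5, 17.6 and 16.2 CPM in R26 normoxia. R26 hypoxia was high and HIF1a-ko hypoxia low, without overlap. It rose 2.08-fold with low oxygen (1.06 ± 0.13 log2, adjusted p = 0.000364), and the difference of HIF1a-ko hypoxia from R26 hypoxia was a 4.57-fold lower level (-2.19 ± 0.13 log2, adjusted p = 1.23e-06), the largest called fall of any member in that comparison. Adamtsl4, a fibrillin-binding protein needed in the zonule of the eye, stood at 137, 129 and 130.4 CPM in HIF1a-ko hypoxia, 101, 102 and 100.1 CPM in R26 hypoxia and 85.1, 87.7 and 81.7 CPM in R26 normoxia. Like Adamts1 and Adamts5 it was highest in HIF1a-ko hypoxia, with 0.25 ± 0.042 log2 for low oxygen (adjusted p = 0.00219) and 0.39 ± 0.042 log2 for HIF1a-ko hypoxia against R26 hypoxia (adjusted p = 5.27e-05). Adamtsl5, another microfibril-associated protein, stood at 67.4, 62.4 and 59.99 CPM in HIF1a-ko hypoxia, 42.7, 42.1 and 46.2 CPM in R26 hypoxia and 52.9, 56.4 and 55.3 CPM in R26 normoxia. It fell with low oxygen (-0.33 ± 0.059 log2, adjusted p = 0.00332) and was higher in HIF1a-ko hypoxia than in R26 hypoxia (0.53 ± 0.059 log2, adjusted p = 6.1e-05). Its difference from R26 normoxia (0.21 ± 0.058 log2, adjusted p = 0.0185) was lost without R26 normoxia 1 (adjusted p = 0.0718).

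Among the inhibitors, Timp2 and Timp3 were the abundant ones; Timp2 was lowest in R26 hypoxia, Timp3 changed by at most 0.13 on the log2 scale, and Timp1 was highest in R26 hypoxia. Timp2, which inhibits MMP2 and also takes part in its activation by MT1-MMP, stood at 1393, 1283 and 1317 CPM in HIF1a-ko hypoxia, 1138, 1198 and 1243 CPM in R26 hypoxia and 1543, 1566 and 1811 CPM in R26 normoxia. R26 normoxia lay above both hypoxia groups, and R26 hypoxia was lowest. Timp2 fell with low oxygen (-0.46 ± 0.069 log2, adjusted p = 0.00139) and was lower in HIF1a-ko hypoxia than in R26 normoxia (-0.30 ± 0.069 log2, adjusted p = 0.0066). Between the hypoxia groups the difference missed the threshold (0.16 ± 0.069 log2, adjusted p = 0.0941) and passed it without R26 normoxia 3 (adjusted p = 0.0293) and with a term for depth class (0.16 log2, adjusted p = 0.00677). Timp3, the matrix-bound inhibitor of MMP, ADAM17 and ADAMTS proteases, stood at 1194, 1191 and 1247 CPM in HIF1a-ko hypoxia, 1105, 1112 and 1148 CPM in R26 hypoxia and 1091, 1107 and 1130.5 CPM in R26 normoxia. All 9 libraries lay close together, with HIF1a-ko hypoxia highest. Timp3 was not called for low oxygen (0.02 ± 0.041 log2, adjusted p = 0.838) and was 0.11 ± 0.041 log2 from R26 hypoxia in HIF1a-ko hypoxia (adjusted p = 0.0555), past the threshold without R26 normoxia 3 (adjusted p = 0.0455), with DESeq2 (adjusted p = 0.0209) and with a term for depth class (adjusted p = 0.0304). The call against R26 normoxia (0.13 ± 0.041 log2, adjusted p = 0.0352) was lost without HIF1a-ko hypoxia 2 or 3, R26 hypoxia 1 or 2, or R26 normoxia 1 or 2 (adjusted p 0.0504 to 0.119). Timp3 shares 1733 exonic bases with Syn3 on the opposite strand, whose group means were at most 0.214 CPM per kb. Timp1, the soluble inhibitor whose gene lies on chromosome X, stood at 46.6, 47.8 and 46.6 CPM in HIF1a-ko hypoxia, 66.8, 66.1 and 51.99 CPM in R26 hypoxia and 49.7, 51.4 and 39.2 CPM in R26 normoxia. R26 hypoxia lay above the other groups, and its deeper library was the lowest of the group, as was that of R26 normoxia. Timp1 rose with low oxygen (0.40 ± 0.12 log2, adjusted p = 0.0348), but the call did not survive leaving out HIF1a-ko hypoxia 2 or 3, R26 hypoxia 1 or 2, or R26 normoxia 1 or 3 (adjusted p 0.0526 to 0.113). In HIF1a-ko hypoxia against R26 hypoxia it was lower (-0.39 ± 0.12 log2, adjusted p = 0.0223), and that call was lost without R26 hypoxia 1 or 2 or HIF1a-ko hypoxia 1, 2 or 3 (adjusted p 0.0537 to 0.0789).

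Outside the chromosome 9 cluster, promoters are shown for one member of the MMP, ADAMTS and TIMP subfamilies, the called gene with the largest change in R26 hypoxia against R26 normoxia among those with a RefSeq entry (build GRCm38.p6, coding strand, 5′ to 3′), with ACGTG or GCGTG, the core of the site that HIF dimers bind, in capitals.
Mmp15 (chr8:95352046-95352345, plus strand): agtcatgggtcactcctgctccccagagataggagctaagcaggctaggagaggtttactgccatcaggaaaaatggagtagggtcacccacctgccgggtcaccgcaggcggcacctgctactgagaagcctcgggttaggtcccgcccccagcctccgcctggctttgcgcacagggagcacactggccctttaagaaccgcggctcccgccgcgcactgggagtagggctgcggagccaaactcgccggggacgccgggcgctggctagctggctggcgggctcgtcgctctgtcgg
Adamts3 (chr5:89883285-89883584, minus strand): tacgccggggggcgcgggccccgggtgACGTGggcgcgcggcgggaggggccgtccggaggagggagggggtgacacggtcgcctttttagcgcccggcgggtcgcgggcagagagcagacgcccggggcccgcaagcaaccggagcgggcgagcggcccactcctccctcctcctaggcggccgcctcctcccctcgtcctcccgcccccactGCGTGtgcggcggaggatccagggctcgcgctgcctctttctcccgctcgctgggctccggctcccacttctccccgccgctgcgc
Timp2 (chr11:118355362-118355661, minus strand): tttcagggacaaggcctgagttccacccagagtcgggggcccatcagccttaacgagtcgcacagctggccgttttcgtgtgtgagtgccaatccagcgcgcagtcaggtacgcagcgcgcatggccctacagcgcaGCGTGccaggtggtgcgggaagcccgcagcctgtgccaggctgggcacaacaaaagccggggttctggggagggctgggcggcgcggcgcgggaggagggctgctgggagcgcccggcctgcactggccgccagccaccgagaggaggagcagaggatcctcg
The Adamts3 stretch holds ACGTG from position -223 to -219 and GCGTG from -36 to -32, that of Timp2 holds GCGTG from -113 to -109, and none was found in that of Mmp15. Read on both strands and counting any start of a gene, a core occurred for 8 of 10 ADAMTS genes, 3 of 4 TIMP, 2 of 4 ADAMTS-like and 4 of 17 MMP genes. Over the 35 members with an entry, 17 had a core (48.6%), beside 46.7% of the 27025 genes in the table (43.8% of its promoters). These short letters are a description of the window and not bound sites. Members with no entry were Adamts4 to Adamts8, Adamts10, Adamts15, Adamts16, Adamts19, Adamtsl1, Mmp2, Mmp9, Mmp16, Mmp17 and Mmp19.

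Genes that act on or beside the members were read from lists of regulators, ADAM genes, other matrix proteases, and transcription factors. Of 13 tested regulators of metalloproteinase activity, 3 were higher and 0 lower in R26 hypoxia against R26 normoxia, and 0 were higher and 6 lower in HIF1a-ko hypoxia against R26 hypoxia, with medians of 0.13 and -0.47 log2. Of all genes tested, 25.2% were called in the first of these comparisons and 45.8% in the second, so the regulators' counts lay near the background and nothing is read from them. Bsg, which encodes the MMP inducer basigin (EMMPRIN), averaged 748 ± 22.3 CPM in HIF1a-ko hypoxia, 1459 ± 69.9 CPM in R26 hypoxia and 614 ± 26.8 CPM in R26 normoxia (SD, n = 3 each). R26 hypoxia stood apart from both, at 1.25 ± 0.054 log2 against R26 normoxia (adjusted p = 9.59e-07), and HIF1a-ko hypoxia was at -0.96 ± 0.054 log2 against R26 hypoxia (adjusted p = 8.17e-07). The endocytic receptor Lrp1, which clears several MMPs, averaged 4105 ± 96.8 CPM in HIF1a-ko hypoxia, 5671 ± 168 CPM in R26 hypoxia and 4575 ± 224 CPM in R26 normoxia. Lrp1 rose with low oxygen (0.31 ± 0.047 log2, adjusted p = 0.0015) and was lower in HIF1a-ko hypoxia than in R26 hypoxia (-0.47 ± 0.048 log2, adjusted p = 3.85e-05). The proteoglycan Spock2 (-1.20 ± 0.21 log2, adjusted p = 0.00104) and the convertase Furin, which activates membrane-bound MMPs (-0.33 ± 0.061 log2, adjusted p = 0.00174), were also lower in HIF1a-ko hypoxia than in R26 hypoxia.

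Of 11 tested ADAM genes, 3 were higher and 2 lower with low oxygen, and 1 was higher and 4 lower in HIF1a-ko hypoxia against R26 hypoxia, where 45.8% of all genes tested were called, as against 25.2% with low oxygen. Adam12, a marker of activated mesenchymal cells, averaged 73.3 ± 3.53 CPM in HIF1a-ko hypoxia, 216 ± 18.6 CPM in R26 hypoxia and 247 ± 11.9 CPM in R26 normoxia. It was lower in HIF1a-ko hypoxia than in R26 hypoxia (-1.56 ± 0.072 log2, adjusted p = 2.8e-07) and was not called with low oxygen (-0.19 ± 0.070 log2, adjusted p = 0.0751). Adam33 averaged 26.2 ± 2.78 CPM in HIF1a-ko hypoxia, 66.6 ± 5.27 CPM in R26 hypoxia and 48.7 ± 2.53 CPM in R26 normoxia, so R26 hypoxia was the highest group (-1.34 ± 0.088 log2 in HIF1a-ko hypoxia against R26 hypoxia, adjusted p = 2.27e-06). Adam11 averaged 1.48 ± 0.113 CPM in HIF1a-ko hypoxia, 2.43 ± 0.189 CPM in R26 hypoxia and 4.26 ± 0.222 CPM in R26 normoxia, and it was lower both in R26 hypoxia against R26 normoxia (-0.81 ± 0.12 log2, adjusted p = 0.00136) and in HIF1a-ko hypoxia against R26 hypoxia (-0.71 ± 0.12 log2, adjusted p = 0.00113). Adam23 averaged 198 ± 6.16 CPM in HIF1a-ko hypoxia, 296 ± 4.94 CPM in R26 hypoxia and 335 ± 7.03 CPM in R26 normoxia. It was lower in HIF1a-ko hypoxia than in R26 hypoxia (-0.58 ± 0.042 log2, adjusted p = 4.28e-06), and its call with low oxygen (-0.18 ± 0.042 log2, adjusted p = 0.012) was lost with no filter on low counts (adjusted p = 0.0813). Of 18 tested genes for other matrix proteases, 6 were higher and 2 lower with low oxygen, and 4 were higher and 7 lower in HIF1a-ko hypoxia against R26 hypoxia, beside the same 25.2% and 45.8% of all genes. The serine protease Htra3 averaged 40.2 ± 2.25 CPM in HIF1a-ko hypoxia, 68.2 ± 5.76 CPM in R26 hypoxia and 37.2 ± 1.46 CPM in R26 normoxia. It rose with low oxygen (0.87 ± 0.070 log2, adjusted p = 4.61e-05) and was lower in HIF1a-ko hypoxia than in R26 hypoxia (-0.76 ± 0.070 log2, adjusted p = 1.97e-05). Prss35 was likewise lower in HIF1a-ko hypoxia (-1.40 ± 0.12 log2, adjusted p = 1.02e-05), while the neutral endopeptidase Mme was higher (1.51 ± 0.18 log2, adjusted p = 0.000108). Pappa2, a protease of IGF-binding proteins, averaged 1.59 ± 0.272 CPM in HIF1a-ko hypoxia, 0.506 ± 0.259 CPM in R26 hypoxia and 0.669 ± 0.115 CPM in R26 normoxia, and was higher in HIF1a-ko hypoxia than in R26 hypoxia (1.68 ± 0.40 log2, adjusted p = 0.00685). Relative to R26 normoxia, HIF1a-ko hypoxia had 2 regulators higher and 6 lower, 3 ADAM genes higher and 5 lower, and 3 of the other proteases higher and 4 lower, where 41.4% of all genes tested were called.

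Of 13 tested transcription factors of the AP-1, ETS and RUNX families, which are known regulators of MMP promoters, 8 were higher and 3 lower with low oxygen, and 2 were higher and 7 lower in HIF1a-ko hypoxia against R26 hypoxia, beside 25.2% and 45.8% of all genes tested. The AP-1 subunit Junb averaged 54.2 ± 4.54 CPM in HIF1a-ko hypoxia, 129 ± 15.3 CPM in R26 hypoxia and 65.5 ± 6.43 CPM in R26 normoxia. Junb rose with low oxygen (0.98 ± 0.10 log2, adjusted p = 0.000182) and was lower in HIF1a-ko hypoxia than in R26 hypoxia (-1.26 ± 0.10 log2, adjusted p = 1.02e-05). Fos averaged 4.70 ± 1.54 CPM in HIF1a-ko hypoxia, 11.4 ± 1.69 CPM in R26 hypoxia and 3.95 ± 1.08 CPM in R26 normoxia. Its changes had the same signs, at 1.54 ± 0.27 log2 with low oxygen (adjusted p = 0.00302) and -1.28 ± 0.27 log2 in HIF1a-ko hypoxia against R26 hypoxia (adjusted p = 0.00323). The ETS factor Etv4 fell with low oxygen (-1.02 ± 0.073 log2, adjusted p = 2.24e-05), and the AP-1 subunit Fosb was higher with low oxygen (0.97 ± 0.19 log2, adjusted p = 0.00504) and lower in HIF1a-ko hypoxia than in R26 hypoxia (-0.77 ± 0.19 log2, adjusted p = 0.00715). Against R26 normoxia, 2 of the 13 factors were higher and 2 lower in HIF1a-ko hypoxia, beside 41.4% of all genes tested.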

How the data were processed

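The deposited table holds whole-number read counts per Ensembl gene for 9 libraries, made by the authors and not normalized. The tools named per the submitters' processing notes are STAR, featureCounts, Trimmomatic, DESeq2 and bcl2fastq 2.17, with the build GRCm38. Neither the labels nor the notes state their settings, the strand option or the annotation release. Per the labels' protocols, a NEBNext Ultra kit was used on poly-A RNA. Identifiers were named with GENCODE M21 (49056 of 49315 matched), and the 259 without a symbol held 0.015 to 0.0178% of a library's counts.

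Counts were fitted with edgeR 4.0.16 in R 4.3.3 (glmQLFit and glmQLFTest, two-sided, TMM, filterByExpr) over all 9 libraries with group as the only term, and p-values were adjusted over 18211 genes. CPM were computed from the library totals of the genes that passed the filter, scaled by TMM factors of 0.975 to 1.031. Before the filter the totals were 43837809 to 107840223 counts. CPM per kb used merged exon lengths. The limit given for a count of 0 covers counting error only. The fit was tested on simulated counts.

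Every member was accounted for by name. Values per library are given for members with a mean of at least 1 CPM in at least 1 group, and of the other lists 4 called genes each, those with the largest changes in R26 hypoxia against R26 normoxia or HIF1a-ko hypoxia against R26 hypoxia. Members and lists were chosen with earlier results of these data known. Of the paired fits, same-numbered R26 hypoxia and R26 normoxia libraries deviated together (correlations 0.48, 0.53 and 0.855). R26 hypoxia 1 with R26 normoxia 2 (0.587) and R26 hypoxia 2 with R26 normoxia 1 (0.498) did so about as much. Libraries 3, the deeper ones, stood apart, at -0.709 to -0.619 with libraries 1 and 2 of the other group. Pairing by number thus cannot be told apart from depth class. The fit with the replicate number as a block is given there where it changes a call. Libraries of a group differed by more than sampling noise (chi-square per degree of freedom 6.73 to 69.9). Alternatives were DESeq2 1.42.0, its size factors in edgeR, other filters, a depth term, the 6 shallower libraries, only the groups compared, the block, and leaving out each library.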

Additional observations from a re-analysis of the deposited data

How the results depend on the processing

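Of 102 values (34 members with a log2 fold change in 3 comparisons), 74 were called, and 61 of these kept their call in all 17 alternatives. The other 13 lost it in at least 1, and none of the 74 changed sign. Of the 28 values not called, 6 stayed the same in every alternative, and the others were called or changed sign in at least 1. Leaving out 1 library at a time, members higher and lower numbered 12 to 15 and 8 to 10 in R26 hypoxia against R26 normoxia, 9 to 11 and 14 to 16 in HIF1a-ko hypoxia against R26 hypoxia, and 6 to 10 and 14 to 16 in HIF1a-ko hypoxia against R26 normoxia, where R26 normoxia 1 gave the 6. Over all 18211 genes tested, the main fit called 4591, 8334 and 7548 in these comparisons. With the replicate block and only the groups compared, 17 members were higher and 11 lower in R26 hypoxia against R26 normoxia. That fit called 7259 of all 17387 genes. In the comparisons of HIF1a-ko hypoxia the numbers do not pair the libraries (same-number correlations -0.656, 0.574 and -0.651 against R26 hypoxia). There the block gave 8 higher and 16 lower against R26 hypoxia (6761 of 17657 genes called) and 7 and 14 against R26 normoxia (6240 of 17669). With a term for depth class the counts were 16 and 10, 13 and 17, and 11 and 18 in the order of the 3 comparisons. That fit called 6959, 10424 and 9617 of the 18211 genes. With DESeq2 the counts were 14 and 9, 10 and 16, and 10 and 15, where 4931, 8333 and 7543 genes were called. Where member counts rose with the block or the depth term, the counts over all genes rose too.

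Sign changes occurred only among 12 of the 28 values that were not called; the cause was not tested. In R26 hypoxia against R26 normoxia, leaving out 1 library gave ranges of -0.33 to 0.43 log2 for Mmp10, -0.022 to 2.66 for Mmp12, -0.0056 to 0.11 for Mmp28, -0.0001 to 0.044 for Timp3 and -0.17 to 3.09 for Timp4. Mmp10 was also -0.16 with the depth term and -0.11 with the replicate block. In HIF1a-ko hypoxia against R26 hypoxia the ranges were -0.93 to 0.13 for Mmp9 and -2.63 to 0.022 for Timp4. Against R26 normoxia, HIF1a-ko hypoxia gave -0.042 to 0.11 for Adamts4, -1.20 to 0.64 for Mmp12, -0.080 to 0.084 for Timp1, -1.30 to 1.61 for Timp4 and -0.11 to 0.23 for Mmp27. There the replicate block gave 0.21 for Mmp12 and 0.61 for Timp4, and the 6 shallower libraries gave -0.078 for Timp1 and -0.037 for Mmp27. The 9 members that were not tested had at most 9 counts in any library, too few for the test. Among the list genes named, only the call of Adam23 with low oxygen was lost.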
